A study of Rattus norvegicus with 6 samples.

Results

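Interferons are secreted proteins that warn neighbouring cells of infection. Type I interferons bind the receptor made of IFNAR1 and IFNAR2, and type II interferon binds the receptor made of IFNGR1 and IFNGR2. The kinases on these receptors (JAK1, TYK2 and JAK2) phosphorylate STAT proteins. STAT2 and IRF9 are part of a complex that binds the interferon-stimulated response element (ISRE), and other STAT complexes bind the gamma-activated site (GAS). The genes switched on in this way, the interferon-stimulated genes, include sensors of foreign RNA, blockers of translation and brakes on the receptor. Many are also transcribed at a low level without infection, which is called interferon tone.

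The 33 genes described here are a list of interferon receptors, signalling proteins and interferon-stimulated genes, chosen by name from the 22601 rows of the deposited table. All 33 were found, 32 under the same spelling and Xaf1 as XAF1, and none had a second row. The cells were RBL-2H3, a rat basophilic leukemia line of wild-type genotype often used in place of primary mast cells. The study compared 3 control libraries, from cells kept without PIO, with 3 libraries from cells that received 10 µM PIO over 6 h. PIO is the label's name for what the series title calls a PPARγ agonist. The labels name no vehicle and give no time for the control libraries. Separate cultures are not mentioned for the replicates, so the spread behind every p-value may be technical. In bulk RNA, fewer cells with a transcript and less transcript per cell cannot be told apart.

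Levels are FPKM, the fragments of a gene scaled to its length and to the library, so levels of different genes can be compared. The FPKM resolved into whole reads on library totals of 14048202 to 15084729. Of 15 mast cell and basophil markers, 12 had a mean of at least 1 FPKM, among them Fcer1a, Ms4a2, Kit and Hdc; Tpsab1 and Mcpt8 were listed at 0. The summed markers of macrophages were at 1.69 to 1.98 FPKM in control and 1.77 to 2.09 FPKM with PIO, with Cd14, Marco, C1qa and C1qb at 0 in all 6 libraries. Siglech, Irf8, Spib and Ly6d, markers of plasmacytoid dendritic cells, a main source of type I interferon, were also at 0 in all 6; the sum of that list, mostly Tcf4, was 6.58 to 7.32 FPKM in control and 6.32 to 7.25 FPKM with PIO. The B cell markers summed to 0.433 to 0.572 and 0.374 to 0.653 FPKM. The fibroblast markers, mostly Col3a1, summed to 5.12 to 5.61 and 4.69 to 4.99 FPKM. The T and NK cell list summed to 309.97 to 335 and 329 to 371 FPKM, nearly all of it Nkg7, with Cd3d, Cd8a and Klrb1 at 0. The part of these markers in the results below was not tested.

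The ISRE is the sequence through which many interferon-stimulated genes are induced, so it was looked for at the members' gene starts. RefSeq promoter windows of the rat assembly GRCr8 (250 bases before to 50 bases after the start) were matched to 24 of the 33 genes by GeneID. The ISRE core was searched as GAAANNGAAA on both strands and the GAS core as TTCNNNGAA, which reads the same on both strands. An ISRE core was found in 12 of the 24 windows and in 3.92% of all 33469 windows. A GAS core was found in 7 of the 24 (29.2%) and in 8.87% of all windows. A match is a match of letters and does not show that a factor binds there. The stretches below, printed along the gene's strand with the ISRE core in capitals, hold genes at 3 kinds of level: Ifih1, Isg20 and Gbp2 above 10 FPKM in control cells, Parp14, Ifit3 and Irf7 between 1 and 10 FPKM, and Bst2, Xaf1 and Rsad2 under 1 FPKM.
Ifih1 (chr3:67684003-67684042, minus strand): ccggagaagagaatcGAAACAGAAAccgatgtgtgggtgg
Isg20 (chr1:142239952-142239991, plus strand): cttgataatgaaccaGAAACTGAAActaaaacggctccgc
Gbp2 (chr2:234005681-234005720, plus strand): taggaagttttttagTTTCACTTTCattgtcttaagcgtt
Parp14 (chr11:78408043-78408082, plus strand): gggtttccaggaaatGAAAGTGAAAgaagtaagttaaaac
Ifit3 (chr1:241527267-241527306, plus strand): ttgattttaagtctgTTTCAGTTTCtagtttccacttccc
Irf7 (chr1:205800068-205800107, minus strand): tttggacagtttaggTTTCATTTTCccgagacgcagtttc
Bst2 (chr16:18255074-18255113, minus strand): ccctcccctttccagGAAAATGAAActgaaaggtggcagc
Xaf1 (chr10:57415909-57415934, plus strand): tgttttgtgtgcaaaGAAACAGAAAc
Rsad2 (chr6:48788243-48788282, minus strand): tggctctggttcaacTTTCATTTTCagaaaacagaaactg

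In Gbp2, Ifit3, Irf7 and Rsad2 the core lies on the strand opposite to the gene, so it appears as its reverse complement. The cores printed for Ifih1 and Xaf1 are the same letters, GAAACAGAAA, and their genes stood at 13.1 and 0.392 FPKM in control. Irf7, Rsad2 and Bst2 share the core GAAAATGAAA, at 1.92, 0.107 and 0.562 FPKM. Gbp2 and Parp14 share GAAAGTGAAA, at 13.8 and 3.72 FPKM. Bst2 has a second core, GAAACTGAAA, which overlaps its first, and the same letters are the core of Isg20 and of Ifit3. The 12 genes with a core ranged from 0.107 to 13.8 FPKM in control (median 3.12 FPKM) and the 12 without from 0.423 to 64.9 FPKM (median 13.3 FPKM). The second set holds the 4 receptor chains and Irf3, Stat2, Irf1 and Irf9, and also Trim25, Mx1, Oasl and Samhd1. Neither set holds Jak1, Tyk2, Ddx58, Dhx58, Isg15, Usp18, Ifit1, Ifit2 or Mx2, for which no window was found. Of these, Ifit2 and Ifit1 had the lowest control means of all members, 0.0333 and 0.0224 FPKM.

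The resting level was read from the 3 control libraries. The receptors, kinases and transcription factors were all expressed, whereas the effector genes spanned a wide range, and several of the best-known ones had almost no reads. Of the 33 genes, 15 had a control mean of at least 10 FPKM, 10 lay between 1 and 10 FPKM and 8 lay under 1 FPKM. The median over the 33 was 8.81 FPKM. Ordered by level, 18 of the 32 neighbouring pairs had overlapping control values, so the order is firm between distant genes only.

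**Figure D1:**
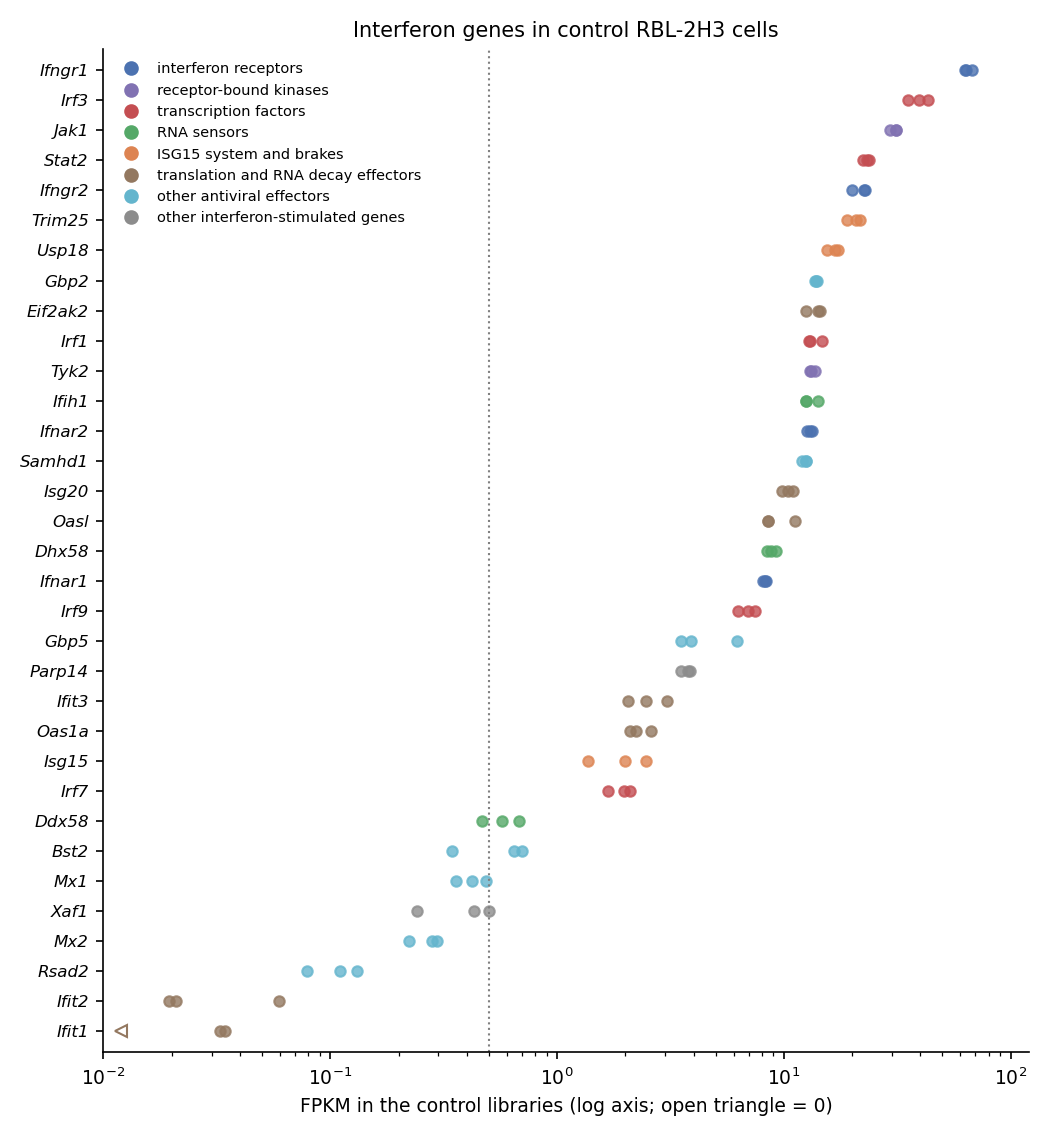
FPKM of the 33 genes in the 3 control libraries, on a log axis, ordered by their mean and coloured by role; each point is 1 library, an open triangle is a value of 0, and the dotted line marks the 0.5 FPKM minimum that the mean over 6 libraries had to reach for testing. The genes run from Ifngr1 at 64.9 FPKM to Ifit1 at 0.0224 FPKM.

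The receptor for type II interferon was the most abundant. Ifngr1, its ligand-binding chain, was at 63.9, 62.9 and 67.9 FPKM (control replicate 1, 2 and 3, the order used throughout), above every other member. Ifngr2, its signalling chain, was at 22.7, 22.8 and 19.9 FPKM. The chains of the type I receptor were lower, with Ifnar2 at 13.1, 12.6 and 13.3 FPKM and Ifnar1 at 8.05, 8.27 and 8.32 FPKM. The values of these 4 chains did not overlap in control cells. The receptor-bound kinase Jak1, which serves both receptors, was at 29.4, 31.3 and 31.1 FPKM, and Tyk2, a kinase of the type I receptor, at 13.2, 13.1 and 13.8 FPKM.

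Among the transcription factors, Irf3 led with 39.4, 35.4 and 43.3 FPKM. IRF3 is kept inactive in the cytoplasm until RNA or DNA sensing leads to its phosphorylation. Stat2 was at 23.7, 22.4 and 23.2 FPKM and Irf9, its DNA-binding partner, at 6.98, 6.28 and 7.44 FPKM. The values of Stat2 and Irf9 did not overlap. Irf1, which binds similar sites, was at 12.9, 13.0 and 14.7 FPKM. Irf7, which amplifies type I interferon production and is itself interferon-stimulated, was the lowest of the 5 factors at 2.09, 1.69 and 1.97 FPKM.

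The 3 cytoplasmic RNA sensors of the RIG-I family differed by more than their spread. Ifih1, which encodes MDA5, a sensor of long double-stranded RNA, was at 12.6, 14.1 and 12.5 FPKM. Dhx58, which encodes LGP2, a regulator of the other sensors, was at 8.44, 9.22 and 8.78 FPKM. Ddx58, which encodes RIG-I, a sensor of RNA ends with a triphosphate, had a control mean of 0.572 FPKM, from 45, 29 and 37 reads. Trim25, a ubiquitin ligase that acts on RIG-I, was at 20.9, 21.7 and 19.1 FPKM.

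ISG15 is a ubiquitin-like protein that is attached to other proteins, and USP18 removes it and also dampens the type I receptor. The modifier and its protease stood far apart in level. Usp18 was at 17.4, 16.7 and 15.6 FPKM and Isg15 at 2.47, 1.37 and 1.99 FPKM, so no library overlapped. Isg15 rested on 48, 25 and 38 reads, and its control values varied by 28.2% (coefficient of variation), against 16.4% from counting alone.

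The genes that act on translation and RNA ran from 13.7 FPKM down to 0.0224 FPKM in control. Eif2ak2, the kinase PKR that stops translation when it binds double-stranded RNA, was at 14.2, 14.5 and 12.5 FPKM. Isg20, an exonuclease of RNA, was at 10.4 ± 0.593 FPKM (SD, n = 3). Oasl, a catalytically inactive relative of the oligoadenylate synthetases in many mammals, was at 8.49, 8.48 and 11.2 FPKM, with control replicate 3 above the others. Oas1a, an oligoadenylate synthetase that activates the nuclease RNase L, was at 2.60, 2.11 and 2.24 FPKM.

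The IFIT proteins bind foreign RNA and work together in complexes, and their transcripts were unequal. Ifit3 had 76, 59 and 92 reads (2.47, 2.05 and 3.05 FPKM) in control. Ifit1 had 0, 1 and 1 reads and Ifit2 had 1, 1 and 3 reads, all at or under 3 reads, the limit that a count of 0 allows. For Ifit1 that limit is 0.0963 FPKM in control replicate 1. With PIO, Ifit1 had 1, 2 and 0 reads and Ifit2 had 1, 1 and 0 reads, so neither can be compared between the groups. These limits cover counting error only, because reads without molecular identifiers are not independent molecules.

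Of the other antiviral effectors, Gbp2 and Samhd1 were the most abundant. Gbp2, a guanylate-binding GTPase, was at 14.0, 13.8 and 13.7 FPKM, and Samhd1, an enzyme that degrades deoxynucleotides, at 12.5, 12.5 and 12.1 FPKM. Gbp5, of the same GTPase family as Gbp2, was at 3.88, 3.51 and 6.23 FPKM, with control replicate 3 far above the others (137 to 255 reads). Another 4 effectors were low. Bst2, which tethers budding viruses and is called tetherin, had a control mean of 0.562 FPKM from 4, 7 and 8 reads. Mx1 and Mx2, dynamin-like GTPases, had control means of 0.423 and 0.267 FPKM, and Rsad2, which encodes viperin, had 0.107 FPKM from 6, 4 and 7 reads. Of the last 2 genes, Parp14, an ADP-ribosyltransferase, was at 3.80, 3.86 and 3.50 FPKM and Xaf1, a partner of the apoptosis inhibitor XIAP, had 0.392 FPKM from 11, 12 and 6 reads.

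Some members have close relatives in the genome, and reads could be split between copies. The table lists 13 Oas genes, of which 4 had a mean of at least 1 FPKM and 4 were at 0 in every library. Oas1b, chosen after its values were seen, was at 9.55, 7.53 and 8.14 FPKM in control, above Oas1a in each library. Of the 4 Ifit genes only Ifit3 reached 1 FPKM, and of the 5 Gbp genes Gbp2 and Gbp5 did. The values of Oas1a, Ifit1, Ifit3, Gbp2 and Gbp5 are therefore uncertain to the extent that such reads were shared.

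No interferon was detected as a transcript beyond 1 read. Of the 12 rows named as interferons, 11 were at 0 in all 6 libraries, among them Ifnb1 and Ifng, and Ifne had 1 read in PIO replicate 2. The limit of 3 reads applies to each library here too. Whether such rows are at 0 because their reads were not assigned was not tested.

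PIO was then compared with control for the same genes. No interferon gene changed past the threshold, and the 27 that were abundant enough to test had more members higher than lower with PIO. Genes were tested with limma on log2(FPKM + 0.5) where the mean over the 6 libraries was at least 0.5 FPKM. This left out Mx1, Xaf1, Mx2, Rsad2, Ifit2 and Ifit1. The background was 4 genes called of 10410 tested (0.0384%, adjusted p under 0.05), and 0 of the 27 members were called. The smallest adjusted p among the members was 0.270 (limma, Benjamini-Hochberg adjustment). Limma-voom on the recovered reads also called 0 of 27.

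Of the 27 tested members 19 were higher and 8 lower (70.4% higher), against 54.0% of all genes tested. The median log2 fold change was 0.08 for the members and 0.01 for all genes tested. The members' median was 0.04 without control replicate 2, 0.06 under TPM scaling (all genes -0.02), 0.05 at a minimum mean of 1 FPKM and 0.03 without a filter. Of the members, 6 had an unadjusted p under 0.05 (22.2%), against 12.5% of all genes. All 6 were higher, against 6.36% of all genes that were higher at that level. Under TPM scaling 17 members were higher and 10 lower, against 4435 and 5975 of all genes. At an unadjusted p under 0.05 there were then 5 members, all higher, while all genes split into 348 higher and 881 lower in place of 662 and 640. Without control replicate 3 there were 10 members, all higher (37.0%), against 1221 of all genes (11.7%), of which 625 were higher. With each other library left out in turn there were 5 or 6 members (18.5% or 22.2%), all higher. The shares of all genes at that level were 13.8% and 8.60% without control replicates 1 and 2, in that order. Without PIO replicates 1, 2 and 3 they were 14.1%, 7.62% and 7.09%.

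**Figure D2:**
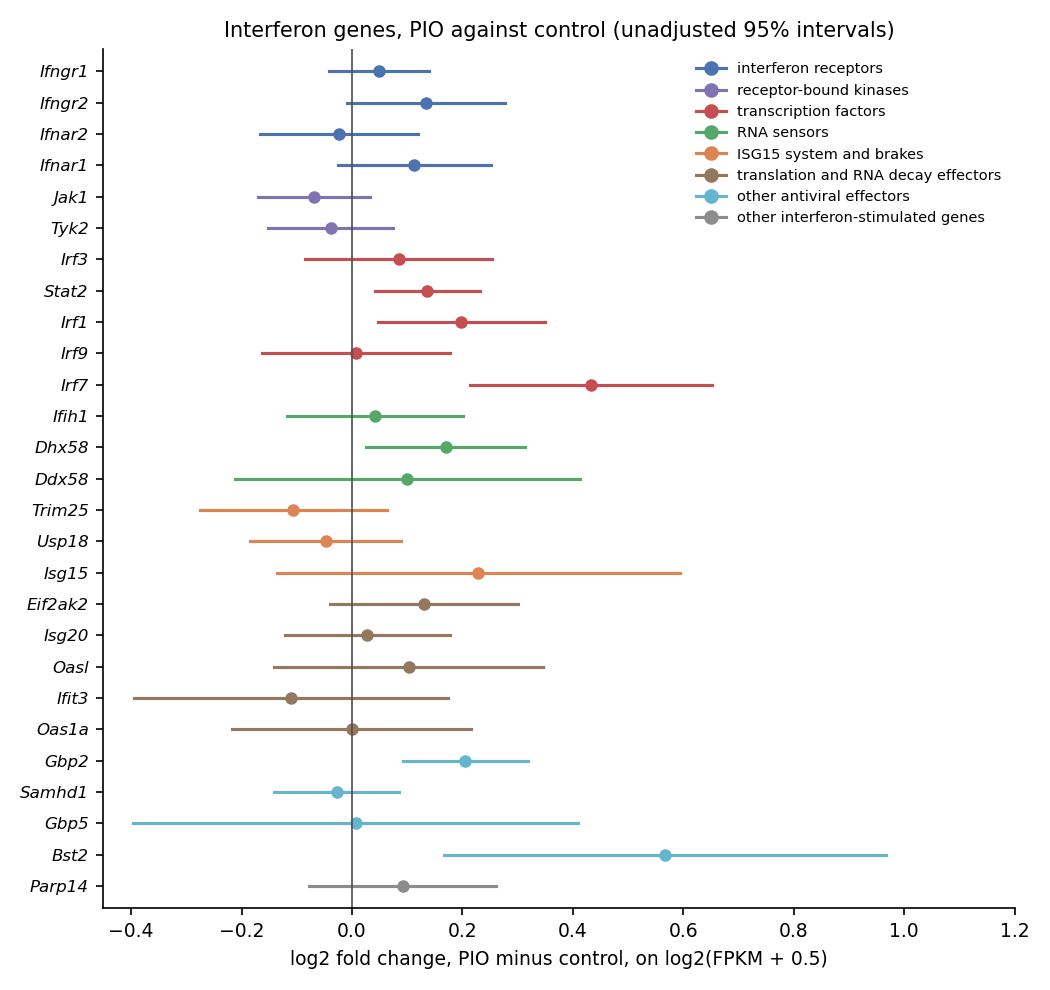
Log2 fold change (PIO minus control, on the log2(FPKM + 0.5) scale) of the 27 tested genes, with unadjusted 95% intervals from limma, grouped by role and in order of control level. Most points lie between -0.11 and 0.23, and Irf7 and Bst2 lie furthest to the right at 0.43 and 0.57.

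In 8 members every PIO value was above every control value (29.6% of the tested), against 10.5% of all genes, and in 0 members was every PIO value below, against 8.09% of all genes. The 8 were Stat2, Ifngr2, Gbp2, Irf1, Dhx58, Ifnar1, Irf7 and Bst2. Median-of-ratios scaling gave the same 8, while 8.82% of all genes then lay above and 9.38% below. Under TPM scaling 4 did not overlap, Stat2, Gbp2, Irf7 and Bst2, against 5.99% of all genes.

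**Figure D3:**
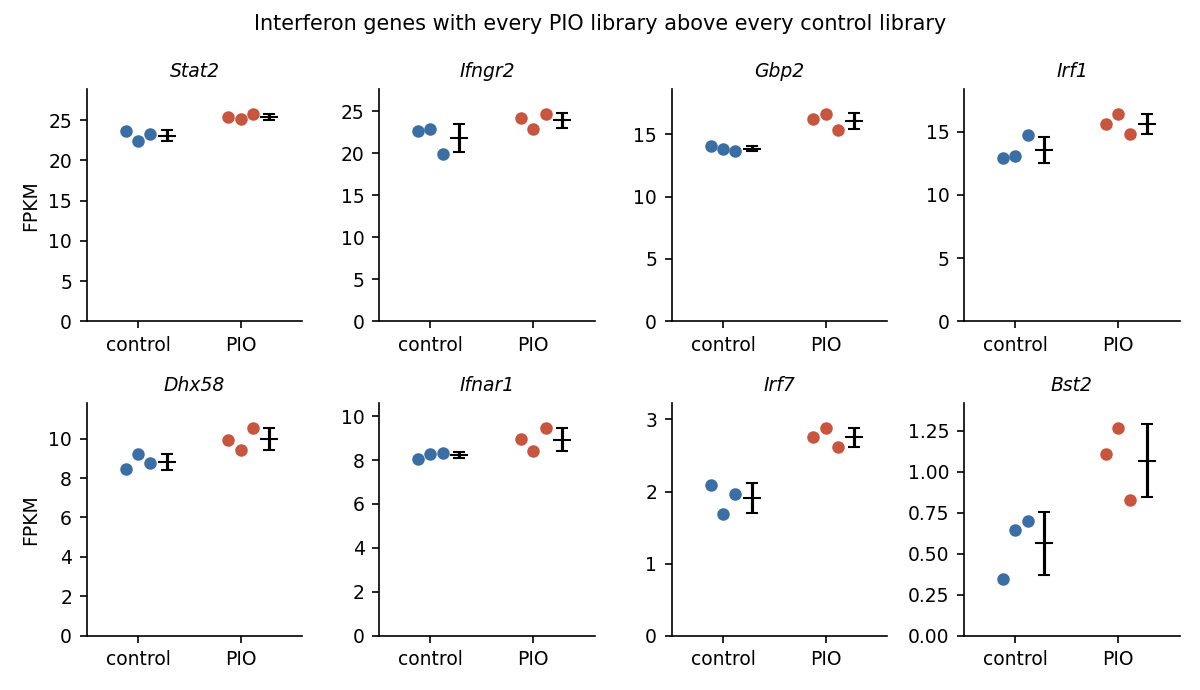
FPKM in each library of the 8 genes whose PIO values all lay above their control values; points are libraries, black bars are the mean and SD of 3 libraries, and each vertical axis starts at 0. The groups lie close in Ifnar1, whose highest control was 8.32 FPKM and lowest PIO value 8.40 FPKM, and the ratio of the group means was highest in Bst2.

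Irf7 had the smallest p. It was at 2.09, 1.69 and 1.97 FPKM in control and 2.76, 2.88 and 2.62 FPKM with PIO, from 65, 49 and 60 and then 80, 85 and 76 reads. All 3 PIO libraries were above all 3 controls, by 43.8% in the mean. The log2 fold change was 0.43 (SE 0.10, limma adjusted p = 0.270), with an unadjusted 95% interval of 0.21 to 0.65. Its control and PIO values varied by 10.9% and 4.76% (coefficient of variation), against 13.1% from counting alone at the control level. Both spreads lay under that, so the interval may be too narrow.

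Gbp2 came next. It went from 14.0, 13.8 and 13.7 FPKM to 16.2, 16.6 and 15.3 FPKM. Its control values varied by 1.31% (coefficient of variation), less than the 4.54% from counting alone, so this spread understates the uncertainty. The log2 fold change was 0.21 (SE 0.05, limma adjusted p = 0.280), 15.9% in the mean. Gbp5, its relative, was at 4.73, 4.29 and 4.28 FPKM with PIO, inside the range of its control values, with a log2 fold change of 0.01 and an interval of -0.40 to 0.41. That value rested on the controls: it was 0.23 without control replicate 3, which held the highest level, and -0.14 without control replicate 2.

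Stat2 was at 25.4, 25.1 and 25.8 FPKM with PIO, against 22.4 to 23.7 FPKM in control. The difference of 10.1% was small and the libraries of each group lay close together (log2 fold change 0.14, SE 0.04, limma adjusted p = 0.321). Irf9, its partner, had a difference nearer 0. It was at 7.22, 6.68 and 6.88 FPKM with PIO (0.01, interval -0.16 to 0.18, and -0.05 to 0.06 with 1 library left out).

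With PIO, Irf1 was at 15.6, 16.4 and 14.8 FPKM, and the lowest of these lay just above control replicate 3 at 14.7 FPKM (log2 fold change 0.20, SE 0.07, limma adjusted p = 0.340). Irf3, the most abundant factor, overlapped, with 39.7, 41.0 and 44.3 FPKM with PIO (0.08, SE 0.07, limma adjusted p = 0.647, interval -0.09 to 0.25). Its value was 0.01 without control replicate 2 and 0.15 without control replicate 3.

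Bst2 had the highest log2 fold change, 0.57 (SE 0.17, limma adjusted p = 0.325), from 4, 7 and 8 reads in control and 12, 14 and 9 reads with PIO. In FPKM it was 0.562 ± 0.192 in control and 1.07 ± 0.222 with PIO (SD, n = 3). At so few reads counting alone varies the control values by 39.7% (coefficient of variation), so the SE may be too small. The log2 fold change also hangs on the pseudocount at so low a level. It was 0.84 with a pseudocount of 0.1 FPKM, 0.41 with 1 FPKM and 0.92 by limma-voom on reads.

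The RNA sensors were all 3 higher and none passed. With PIO, Dhx58 was at 9.96, 9.44 and 10.5 FPKM, above its controls (0.17 on the log2 scale, SE 0.06, limma adjusted p = 0.366). Ifih1 was at 14.0, 13.9 and 12.5 FPKM, overlapping its controls (0.04, interval -0.12 to 0.20). Ddx58 had 35, 38 and 48 reads, overlapping its controls (0.10, interval -0.21 to 0.41).

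Of the receptor chains 3 were higher and Ifnar2 was lower. With PIO, Ifngr2 was at 24.2, 23.0 and 24.7 FPKM (0.13 on the log2 scale, SE 0.06, limma adjusted p = 0.423) and Ifnar1 at 8.95, 8.40 and 9.45 FPKM (0.11). Without control replicate 3, which held the lowest Ifngr2 value, the log2 fold change of Ifngr2 was 0.07. Ifngr1 was at 66.3, 67.6 and 67.5 FPKM (0.05, SE 0.04, limma adjusted p = 0.614, interval -0.04 to 0.14) and Ifnar2 at 13.4, 13.3 and 11.7 FPKM (-0.02, and 0.04 with PIO replicate 3 left out).

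Both kinases had values below 0 that did not pass. With PIO, Jak1 was at 30.0, 28.4 and 28.9 FPKM (-0.07 on the log2 scale, SE 0.04, limma adjusted p = 0.536) and Tyk2 at 13.3, 12.6 and 13.1 FPKM (-0.04, SE 0.05, limma adjusted p = 0.762). Both overlapped their controls.

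The effector genes other than Gbp2 and Bst2 overlapped between the groups. With PIO, Usp18, the brake, was at 16.5, 16.4 and 15.1 FPKM (-0.05 on the log2 scale, SE 0.06, limma adjusted p = 0.754, interval -0.18 to 0.09). Trim25 was at 20.6, 19.3 and 17.3 FPKM (-0.11, SE 0.07, limma adjusted p = 0.565), and leaving out 1 library moved it between -0.16 and -0.04. Isg15 was at 2.32 ± 0.152 FPKM (SD, n = 3; 41, 46 and 40 reads), overlapping the upper part of its control range (0.23, interval -0.14 to 0.59). Without control replicate 2, its lowest library, the value of Isg15 was 0.05. Eif2ak2 was at 15.3, 15.9 and 13.9 FPKM, with PIO replicate 3 below 2 of the controls (0.13, and 0.07 without control replicate 3). Ifit3 was at 2.37, 2.22 and 2.23 FPKM (-0.11, SE 0.12, limma adjusted p = 0.724), and its value was 0.01 without control replicate 3, which held its highest level.

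The remaining tested members also overlapped between the groups. Samhd1 had a log2 fold change of -0.03 (SE 0.05, limma adjusted p = 0.834). Oas1a was at -0.0008 (interval -0.22 to 0.22) and Isg20 at 0.03 (interval -0.12 to 0.18). Parp14 was at 0.09 (interval -0.08 to 0.26) and Oasl at 0.10 (interval -0.14 to 0.35). With control replicate 3 left out Oasl was at 0.23 and Isg20 at -0.01. Of the 6 untested members, Mx1 had 24, 19 and 27 reads in control and 27, 30 and 12 with PIO. Mx2 had 30, 21 and 28 and then 23, 26 and 24 reads, Xaf1 had 11, 12 and 6 and then 11, 6 and 10, and Rsad2 had 6, 4 and 7 and then 3, 6 and 4. The groups overlapped in each of these 4.

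**Figure D4:**
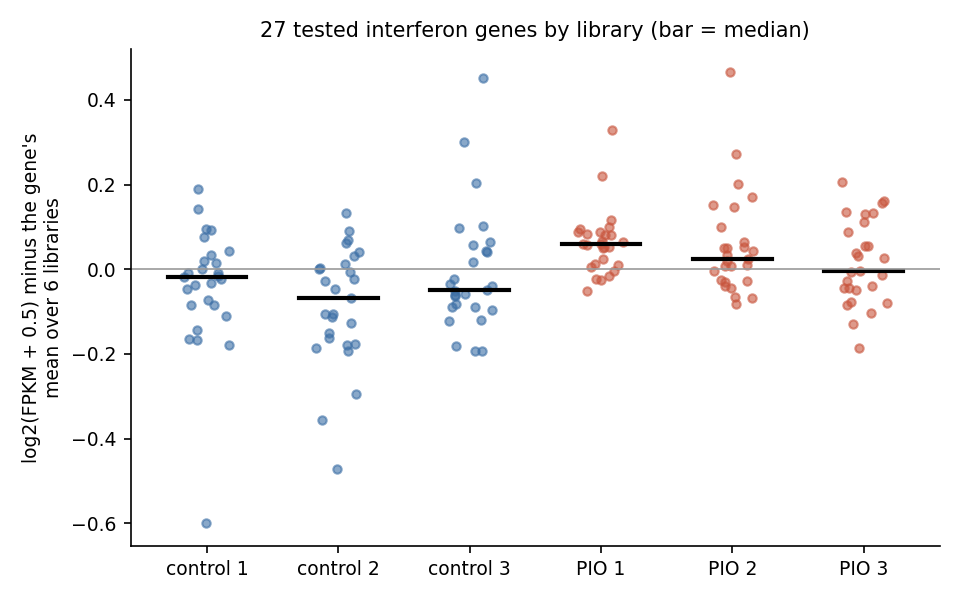
For each of the 27 tested genes, log2(FPKM + 0.5) in a library minus the gene's mean over the 6 libraries, one point per gene and a black bar at the median of each library. The medians were -0.02, -0.07 and -0.05 in control replicates 1 to 3 and 0.06, 0.02 and -0.004 in PIO replicates 1 to 3.

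The difference was not spread evenly over the libraries, as the plot of the 27 genes by library shows. Control replicate 2 held the lowest value of 11 of the 27 genes (40.7%), against 17.1% of all genes tested. PIO replicate 1 held the lowest value of 0, against 10.2% of all genes tested, the smallest such share of the 6 libraries. Control replicate 3 and PIO replicate 3 each held the highest value of 6 genes (22.2%) and the lowest of 5 (18.5%). Over all genes tested these shares were 22.0% and 24.2% in control replicate 3 and 19.8% and 20.0% in PIO replicate 3. The 33 genes summed to 367 to 379 FPKM in the control libraries and to 384 to 391 FPKM with PIO. As TPM the sums overlapped, with 733, 740 and 763 in control and 778, 759 and 745 with PIO.

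The wider pathway was read from a list of 99 further genes, of which 71 were tested and 0 were called in limma, with 8 at an unadjusted p under 0.05 (6 higher and 2 lower, 11.3%, against 12.5% of all genes) and 0 called by limma-voom. Of the 71, 44 were higher and 27 lower, with a median of 0.03. Under TPM scaling 36 were higher and 35 lower, and 2 higher and 3 lower were at an unadjusted p under 0.05. In 15 of the 71 every PIO value was above every control value (21.1%, against 10.5% of all genes) and in 2 below (2.82%, against 8.09%). Under TPM scaling these were 9 (12.7%, against 5.99%) and 4 (5.63%, against 10.4%). The most abundant was Ifitm1, whose protein blocks virus entry at membranes, at 817, 783 and 781 FPKM in control and 852, 830 and 839 FPKM with PIO (0.08, limma adjusted p = 0.375). Its neighbour Ifitm2 was at 474 ± 32.5 and 492 ± 20.7 FPKM (SD, n = 3), and Ifitm3, chosen after its values were seen, had 1 read in each control library. These are genes of the same family, so how their reads were divided is uncertain.

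Antigen presentation genes, which interferon gamma induces through IRF1 and NLRC5, ranged in control from 459 FPKM for B2m to 2.42 for Tap2, 1.15 for Nlrc5 and 0 for Ciita, the last 3 named after their values were seen. Of the 11 tested, 10 were higher with PIO (90.9%, against 54.0% of all genes), with a median of 0.08 and 0 called. Only 1 of the 11, a higher one, had an unadjusted p under 0.05 (9.09%, against 12.5% of all genes). Under TPM scaling 8 were higher, against 4435 of all 10410 genes tested, and 0 had an unadjusted p under 0.05. B2m, the light chain of class I molecules, was at 461, 459 and 456 FPKM in control and 468, 474 and 478 FPKM with PIO (0.04, limma adjusted p = 0.534). Psmb8, an immunoproteasome subunit, was at 215 ± 11.3 and 217 ± 5.98 FPKM, and Tapbp, which encodes tapasin, at 163 ± 5.93 and 165 ± 8.03 FPKM (SD, n = 3). Under TPM scaling Psmb8 and Tapbp had log2 fold changes of -0.01 and -0.005. Ptpn6, which encodes the phosphatase SHP-1, was at 171 ± 2.21 and 177 ± 2.30 FPKM.

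The smallest p of the wider list was that of Jak2, the kinase of the interferon gamma receptor, at 21.3, 21.1 and 21.5 FPKM in control and 19.1, 18.3 and 17.6 FPKM with PIO. All PIO values lay below all controls (log2 fold change -0.21, SE 0.05, limma adjusted p = 0.270). Herc6, a ligase that attaches ISG15 in rodents, was at 10.3, 10.3 and 10.1 FPKM in control and 9.44, 8.93 and 8.62 FPKM with PIO (-0.18, limma adjusted p = 0.325), also without overlap. Slfn2 (-0.14) and Traf6 (-0.14) followed, with values of -0.06 without control replicate 3 and -0.09 without PIO replicate 1, in that order. Among the higher ones were Mavs, the mitochondrial adaptor of the RNA sensors, at 4.82, 4.76 and 5.15 FPKM in control and 5.72, 6.00 and 6.00 FPKM with PIO (0.24, SE 0.06, limma adjusted p = 0.304). Ifi35 was at 12.3 ± 0.422 and 14.2 ± 0.744 FPKM (0.20, limma adjusted p = 0.304) and Tdrd7 at 10.7 ± 0.169 and 11.8 ± 0.390 FPKM (0.14, limma adjusted p = 0.365), SD, n = 3.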

How the data were processed

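RNA-seq was made from 6 libraries of RBL-2H3 cells, 3 control and 3 PIO, with TRIzol extraction and a stranded mRNA kit, per the labels' protocols. The authors deposited FPKM for each gene and library. The submitters' processing notes name, without roles, HISAT2 2.2.1.0 and BWA 0.7.5a beside Cufflinks, HTSeq, DESeq, SAMtools 1.3.1, Trimmomatic 0.36 and FastQC 0.11.5. They name the build GRCh38, a human one, although the gene names are those of the rat. How fragments were assigned to genes was not stated there.

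Whole reads and lengths were recovered for 15427 of 15429 genes above 0 (tolerance 2e-05 of a read, scaled up for large numbers), as the smallest whole numbers that give the FPKM. Tests used genes averaging 0.5 FPKM or more, on log2(FPKM + 0.5), which understates changes of low genes, with limma 3.58.1 in R 4.3.3: a design with group alone, trended variance, two-sided tests, Benjamini-Hochberg over all genes at 0.05. Figures were drawn with matplotlib 3.10.9, and tables were made in Python 3.11.15 with pandas 2.3.3, scipy 1.17.1 and numpy 2.4.6. The code was tested on simulated data. Members and lists were chosen with earlier results of these data known. All 33 members are given; fold change with SE and adjusted p is given for up to 6 members with the smallest p in each direction and the 6 highest in control. Of the wider list, those named are the 6 most abundant and 4 with the smallest p in each direction. A further gene that the rule named is not reported here. Alternatives: no filter, pseudocounts of 0.1 and 1, a minimum mean of 1 FPKM, median-of-ratios and TPM scaling, no variance trend, the replicate number as a block, limma-voom on recovered reads, and each library left out.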

Additional observations from a re-analysis of the deposited data

How the results depend on the processing

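In none of the 15 alternatives was any of the 33 members, or any gene of the wider list, called. All genes called numbered 4, and 1 without a filter, 2 without a variance trend and 7 by limma-voom. With the replicate number as a block 3 genes and 0 members were called. Correlations of same-numbered libraries' deviations from their group means were -0.07, 0.03 and 0.08, against -0.09 to 0.08 for differently numbered ones. They give no sign that the numbers pair the libraries, but cannot show that same-numbered libraries were handled apart. The median log2 fold change of the members, 0.084, was 0.031 without a filter, 0.049 at a minimum mean of 1 FPKM, 0.056 under TPM scaling, and 0.039 to 0.090 with 1 library left out. It was above that of all genes in each alternative, by 0.028 to 0.079. The median control level of the members, 8.81 FPKM, was 17.6 after TPM scaling, which scales each library to a larger sum, and 8.482 to 8.998 FPKM without 1 control library. With 1 library left out, the log2 fold change of Ifit3 ranged from -0.227 to 0.0115, Psmb8 from -0.0236 to 0.0511 and Tapbp from -0.0159 to 0.0441. Under TPM scaling Psmb8 was -0.010 and Tapbp -0.0052. The cause of these moves was not tested. Irf7, Gbp2 and Stat2 had an unadjusted p under 0.05 in all 15 alternatives, Bst2 in the 14 that tested it, Irf1 in 12 and Dhx58 in 11. Depth limits the 8 members under 1 FPKM, where 1 library holds 0 to 48 reads.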
